A study of Mus musculus with 6 samples.

Results

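Cells that run short of amino acids or accumulate misfolded protein in the endoplasmic reticulum (ER) slow general protein synthesis and switch on a small set of stress genes. In the integrated stress response (ISR), kinases phosphorylate the initiation factor eIF2α, and transcripts with short upstream reading frames, such as *Atf4*, are then translated better while most others are translated less. In the unfolded protein response (UPR), the ER membrane sensors IRE1α (*Ern1*), ATF6 and PERK (*Eif2ak3*) pass the signal from the ER to the nucleus. These routes were examined in mouse neurons through 10 genes chosen by name: the transcription factors *Atf3*, *Atf4*, *Atf5*, *Atf6*, *Ddit3* (CHOP) and *Xbp1*, the sensor *Ern1*, and the response genes *Trib3*, *Chac1* and *Asns*. All 10 were listed among the 31053 genes of every library. The choice rests on gene names, not on a threshold in the values, but was made with earlier results of these data known.

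The samples were primary cortical neurons of wild-type C57BL/6J mice, dissected at embryonic day 18, given floxuridine from day in vitro (DIV) 3 and infected with AAV at DIV 6. Floxuridine limits dividing cells. Both groups carried a doxycycline (Dox)-inducible vector in which a synapsin promoter drives the transactivator. They received Dox at 1 µg per ml for 48 h and were collected at DIV 14, with no drug given to induce stress. Every library had Dox and AAV, so their effect on these genes was not tested. The paper states that Dox by itself can alter expression. It also reports that genes changed in Dox-treated neurons were not enriched for a stress term. The groups differed in the Ribo-STAMP variant. In RPL10A-STAMP and RPL22-STAMP (3 libraries each), the C-to-U deaminase APOBEC1 is fused to a different protein of the large ribosomal subunit. Edits per read (EPR), the number of C-to-U edits in a gene divided by its reads, is used as a readout of ribosome association. No uninfected library was analysed here, so no background editing was subtracted, and the wells behind the 3 libraries of a variant are not identified in the labels. The paper calls the replicates biological in its methods and technical in a sentence of its results. The *p* values therefore measure the spread between these libraries, which may be technical.

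EPR was above 0 (edited) in 9892 to 11195 genes per library, and the median EPR of edited genes ranged from 0.0118 to 0.0154 in RPL10A-STAMP libraries and from 0.00907 to 0.0125 in RPL22-STAMP libraries. The reads behind each value are unknown, so a gene listed at 0 may have had reads but no edits, or no reads. All 7 neuron markers, including *Rbfox3*, *Map2* and *Slc17a7*, were edited in all 6 libraries, but so were 4 of 5 astrocyte markers. The summed EPR of the astrocyte markers ranged from 0.132 to 0.177 in RPL10A-STAMP libraries and from 0.120 to 0.187 in RPL22-STAMP libraries. *Mbp* was the only one of 4 oligodendrocyte lineage markers edited in every library. Of 4 microglia markers none was, and the 3 endothelial markers were at 0 throughout. Their part in the results was not tested.

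Sequence features that link these genes to stress signalling are shown first. One is the short unconventional intron of *Xbp1*, which active IRE1α cuts out of the cytoplasmic mRNA. It lies in exon 4 of 5 (chr11:5524282-5524307, plus strand, GRCm38). The 26 intron bases are in capitals, with 2 exon bases on either side.
Xbp1 intron: agCACTCAGACTATGTGCACCTCTGCAGca
With this stretch retained the open reading frame has 267 codons, and with it removed 371, the longer form being the active transcription factor XBP1s. EPR was deposited for the gene as a whole, so the 2 forms are summed in every *Xbp1* value given here.

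Another is the C/EBP-ATF response element, through which ATF4 and CHOP act on their targets. Its core TGATGNAA was searched on both strands of the 250 bases before each RefSeq start (GRCm38.p6), as were the elements below. It was found in 3 of the 9 genes that had a promoter entry, and in 3.45% of all 32851 promoters. The lists are counted by gene and all promoters by entry, so the shares are not strictly alike. The 3 stretches are printed because they come from response genes (*Asns*, *Chac1*) and from *Atf3*, with the core in capitals. They lie at chr6:7693214-7693243 (minus strand), chr1:191183425-191183454 (minus strand) and chr2:119351038-119351067 (plus strand).
Asns: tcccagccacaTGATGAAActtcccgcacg
Atf3: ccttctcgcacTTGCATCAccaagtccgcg
Chac1: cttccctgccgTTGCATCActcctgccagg
The core started 23, 110 and 193 bases upstream of the RefSeq start of *Asns*, *Atf3* and *Chac1*, in the last 2 as its reverse complement. The *Asns* and *Atf3* stretches lie inside the GENCODE gene bounds, whose starts are further out. *Atf6* had no entry.

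The ER stress response element, CCAAT and CCACG with 9 bases between them, is bound by ATF6 with NF-Y. It was in none of the 9 genes, in 8 of 17 ER chaperone and ER-associated degradation (ERAD) genes with an entry and in 0.113% of all promoters. That of *Hspa5*, which encodes the chaperone BiP, is shown for comparison (chr2:34772020-34772049, plus strand), with the element in capitals.
Hspa5: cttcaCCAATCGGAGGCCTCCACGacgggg
TGACGTGG, a UPR element core that can overlap CCACG on the other strand, was in 0.563% of all promoters and in none of these 9. A match is a string of letters and was not tested for binding.

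Upstream reading frames, each begun by an ATG, are the feature through which *Atf4* and its relatives escape the ISR block on initiation. In the transcript with the longest coding sequence, the 5′ untranslated region held 3 ATG triplets in *Atf4*, 2 in *Atf5* and 2 in *Ddit3*. There was 1 in each of *Atf3*, *Asns* and *Xbp1*, and none in *Atf6*, *Ern1*, *Trib3* or *Chac1*. Triplets were counted without regard to frame or stop codon, so these are not counts of reading frames. A search for matches of at least 50 bases without a mismatch found none elsewhere in the genome for the 10 transcripts. A match that extended into a longer, imperfect copy was not kept, so such copies are not excluded. A second record that also carries the name *Ddit3* covers a 102-base reading frame that ends before the CHOP coding sequence begins. It shares all its exon bases with *Ddit3* and was at 0 in all 6 libraries, whereas 6.13% of the exon bases of *Ddit3* are shared.

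The 10 genes split evenly. *Atf4*, *Atf5*, *Atf6*, *Asns* and *Xbp1* were edited in all 6 libraries, and the other 5 were at 0 in at least 3. Of 60 gene-by-library values, 37 were above 0, and 32 of these lay below the median of edited genes in their own library. Over all listed genes, 25.9% were edited in all 6 libraries and 58.7% in none. EPR came from all cells of a well, so fewer edited cells and fewer edits per cell cannot be told apart.

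**Figure D1:**
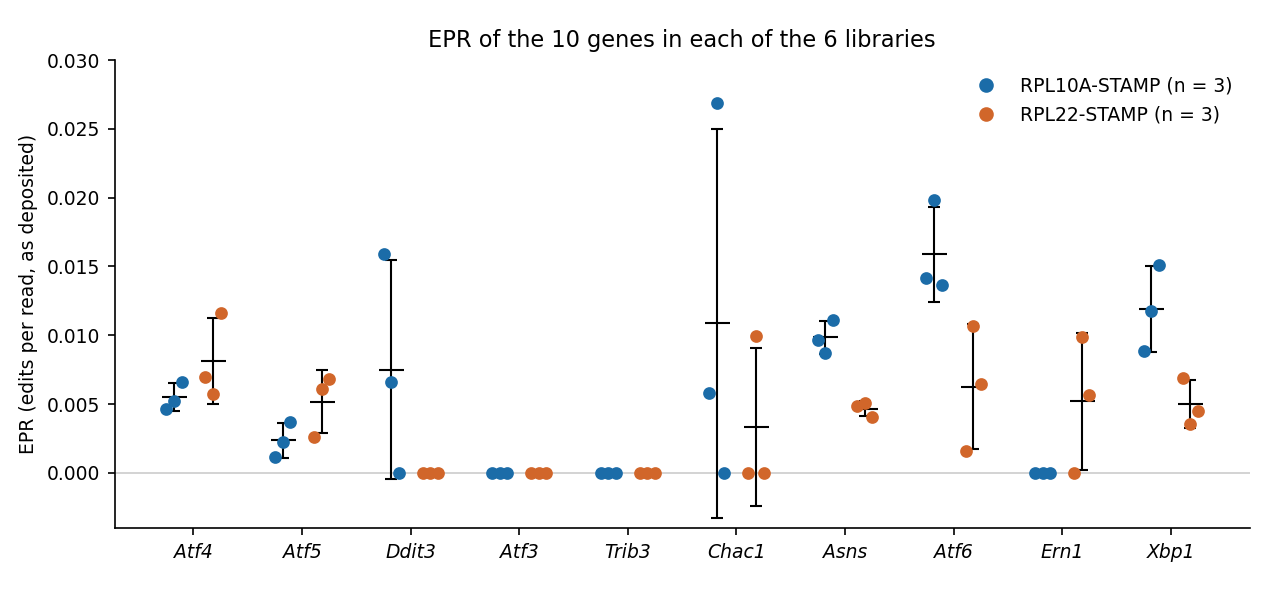
EPR of each gene in each library (points, edits per read as deposited), with RPL10A-STAMP in blue and RPL22-STAMP in orange; black marks are the mean ± SD of 3 libraries, which reaches below 0 where libraries are at 0. *Atf6*, *Asns* and *Xbp1* sit higher in all RPL10A-STAMP libraries, and *Atf3* and *Trib3* are at 0 in all 6.

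*Atf4* (chr15:80255184-80257541, plus strand, GRCm38) encodes the transcription factor at the centre of the ISR. Its EPR was 0.00465, 0.00519 and 0.00664 in the RPL10A-STAMP libraries and 0.00695, 0.00572 and 0.0117 in those with RPL22-STAMP. The groups overlapped, with the highest value in RPL22-STAMP replicate 3. The means were 0.00550 ± 0.00103 and 0.00811 ± 0.00313 (SD, n = 3 each), and a two-sided exact permutation test gave *p* = 0.20, where 3 against 3 libraries allow no *p* below 0.10. *Atf4* ranked low among edited genes, at the 11.5th to 16.3rd percentile with RPL10A-STAMP and at the 16.8th to 51.2nd with RPL22-STAMP.

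*Atf5* (chr7:44812256-44816658, minus strand) encodes a relative of ATF4 whose transcript has the same kind of upstream frames. Of the 5 genes edited throughout it had the lowest mean with RPL10A-STAMP, but with RPL22-STAMP *Asns* and *Xbp1* were lower. Its EPR was 0.00116, 0.00225 and 0.00371 in the RPL10A-STAMP libraries and 0.00260, 0.00609 and 0.00685 in those with RPL22-STAMP. As for *Atf4*, the mean was lower with RPL10A-STAMP, 0.00237 ± 0.00128 against 0.00518 ± 0.00227 (SD, n = 3 each; two-sided exact permutation *p* = 0.20), and RPL22-STAMP replicate 1 fell within the RPL10A-STAMP range. In RPL10A-STAMP replicate 1, *Atf5* lay at the 0.285th percentile of edited genes.

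*Asns* (chr6:7675169-7693254, minus strand) encodes asparagine synthetase, a classic ATF4 target. Its EPR was 0.00967, 0.00874 and 0.0111 in the RPL10A-STAMP libraries and 0.00488, 0.00506 and 0.00408 in those with RPL22-STAMP. The groups did not overlap and were tight, at 0.00985 ± 0.00121 and 0.00467 ± 0.000525 (SD, n = 3 each), a ratio of means of 2.11 with the smallest *p* the exact permutation test allows, 0.10. The mean of *Asns* was higher with RPL10A-STAMP, whereas that of *Atf4* was lower. EPR is per read, so this does not measure activation of *Asns* by ATF4.

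*Atf6* (chr1:170704674-170867771, minus strand) encodes the ER-anchored factor that is cut free in the Golgi. Of the 5 genes edited throughout it had the highest mean with RPL10A-STAMP, but with RPL22-STAMP its mean was below that of *Atf4*. Its EPR was 0.0141, 0.0198 and 0.0137 in the RPL10A-STAMP libraries and 0.00159, 0.0107 and 0.00649 in those with RPL22-STAMP. The groups did not overlap, but the RPL22-STAMP libraries spread widely, and replicate 1 lay at the 1.44th percentile of edited genes while replicate 2 lay at the 42.2nd. The ratio of means was 2.54 (0.0159 ± 0.00343 against 0.00625 ± 0.00454, SD, n = 3 each; two-sided exact permutation *p* = 0.10).

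*Xbp1* (chr11:5520659-5525893, plus strand), the substrate of IRE1α, had an EPR of 0.00882, 0.0118 and 0.0151 in the RPL10A-STAMP libraries and 0.00692, 0.00354 and 0.00452 in those with RPL22-STAMP. The libraries did not overlap as deposited, with means of 0.0119 ± 0.00313 and 0.00499 ± 0.00174 (SD, n = 3 each), a ratio of 2.39 and an exact permutation *p* of 0.10. After each library was scaled to its median gene, RPL22-STAMP replicate 1 (0.00956) exceeded RPL10A-STAMP replicate 1 (0.00924).

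The remaining genes were at 0 in some or all libraries and were left out of the limma test. *Ddit3* (chr10:127290774-127296288, plus strand), the proapoptotic factor CHOP, was edited in 2 RPL10A-STAMP libraries (0.0159 and 0.00662) and listed at 0 in the other 4. *Chac1* (chr2:119351229-119354381, plus strand), which encodes a glutathione-degrading enzyme, was edited in 3 libraries, at 0.00581 and 0.0269 in RPL10A-STAMP libraries and at 0.00993 in RPL22-STAMP replicate 2. The value of 0.0269, in RPL10A-STAMP replicate 2, was the highest of any of the 10 genes. *Ern1* (chr11:106394650-106487852, minus strand), the IRE1α sensor, was edited only in RPL22-STAMP libraries, at 0.00990 and 0.00568, and listed at 0 in the other 4. *Atf3* (chr1:191170296-191218039, minus strand), an inducible repressor, and *Trib3* (chr2:152337422-152344032, minus strand), a pseudokinase induced by CHOP, were listed at 0 in all 6. For *Ddit3*, *Chac1* and *Ern1* the two-sided exact permutation test gave *p* = 0.40, 0.70 and 0.40.

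EPR divides edits by the reads of the same gene, but not by transcript length or by the number of editable C bases. These differ between the genes, with transcripts of 1725 bases for *Atf4* and 7246 for *Atf6*. Levels of different genes are therefore set side by side per read, as a description only. The order was not shared by the 2 variants. With RPL10A-STAMP the mean EPR ran from *Atf6* (0.0159) through *Xbp1* (0.0119), *Asns* (0.00985) and *Atf4* (0.00550) to *Atf5* (0.00237). Of the neighbours in this order, the libraries of *Atf6* and *Xbp1* overlapped, as did those of *Xbp1* and *Asns*, whereas those of *Asns* and *Atf4* and of *Atf4* and *Atf5* did not. With RPL22-STAMP the order was *Atf4* (0.00811), *Atf6* (0.00625), *Atf5* (0.00518), *Xbp1* (0.00499) and *Asns* (0.00467), and every neighbouring pair overlapped. These orders are a description of 3 libraries each and were not tested.

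**Figure D2:**
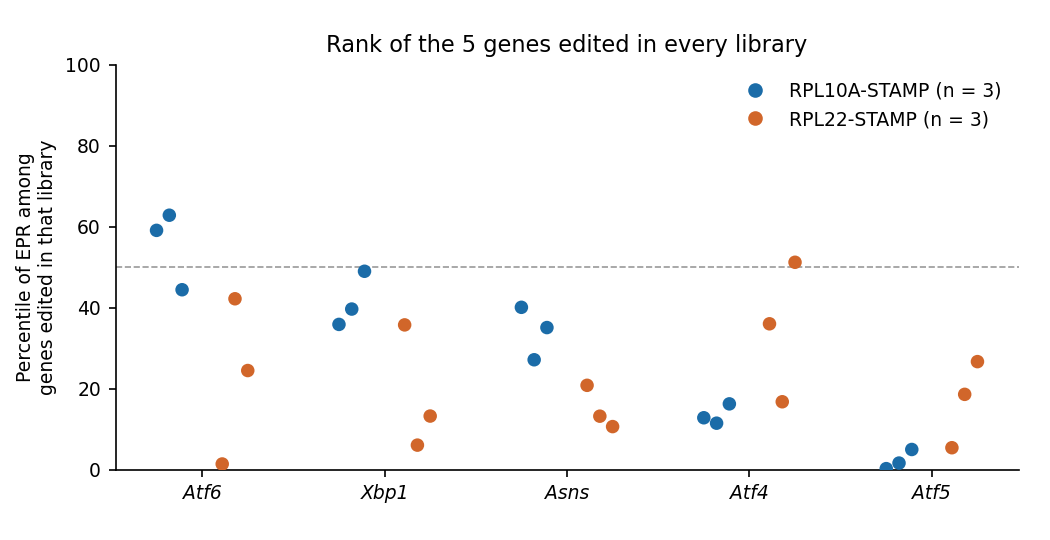
Percentile of EPR among the genes edited in the same library (vertical axis, %), for the 5 genes edited in every library; points are libraries (RPL10A-STAMP blue, RPL22-STAMP orange) and the dashed line is the median. *Atf5* reaches at most the 26.7th percentile, *Atf6* ranks higher in the RPL10A-STAMP libraries and *Atf4* higher in those with RPL22-STAMP.

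To compare the variants across genes, limma was run on log2(EPR + 0.01) of the 8046 genes edited in all 6 libraries, after scaling each library to its median gene. At a Benjamini-Hochberg adjusted *p* under 0.05, 14.3% of these genes were called, 8.51% for higher EPR in RPL10A-STAMP libraries and 5.77% for higher EPR in RPL22-STAMP libraries. None of the 5 testable stress genes was. At an unadjusted *p* under 0.05 limma had 2 of 5, *Atf5* and *Atf6*, against 30.9% of all genes. The plain per-gene test on EPR as deposited called none of the 8046 after adjustment and had 3 of the 5 at an unadjusted *p* under 0.05 (*Asns*, *Atf6* and *Xbp1*), against 24.8% of all genes. Libraries did not overlap as deposited for 3 of 5, all of them higher with RPL10A-STAMP. Over all genes tested the share was 34.4%, made up of 28.2% in that direction and 6.21% in the other. On scaled EPR the libraries did not overlap for 4 of 5 (all but *Xbp1*), against 37.1% of all genes in either direction.

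The estimates leaned in 2 directions. With RPL22-STAMP as the reference, the log2 fold change was 0.55 for *Atf6* (SE 0.21, 95% interval 0.05 to 1.05, limma adjusted *p* = 0.130) and 0.35 for *Xbp1* (SE 0.17, −0.04 to 0.74, adjusted *p* = 0.201). For *Asns* it was 0.28 (SE 0.13, −0.02 to 0.57, adjusted *p* = 0.187). The other 2 lay below 0, *Atf4* at −0.38 (SE 0.16, −0.76 to 0.01, adjusted *p* = 0.168) and *Atf5* at −0.39 (SE 0.13, −0.69 to −0.08, adjusted *p* = 0.0927). These intervals leave room for differences of the size seen in called genes, so equal EPR in the 2 variants was not shown. The added 0.01 is as large as these EPR values and shrinks the folds. Without it the log2 fold changes were 1.32 for *Atf6*, 0.89 for *Xbp1*, 0.69 for *Asns*, −0.90 for *Atf4* and −1.55 for *Atf5*, with adjusted *p* of 0.0965 to 0.211. Single libraries also moved the sizes: *Atf6* was at 0.35 without RPL22-STAMP replicate 1, *Xbp1* at 0.23 without RPL22-STAMP replicate 2, and *Atf4* at −0.25 without RPL22-STAMP replicate 3.

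**Figure D3:**
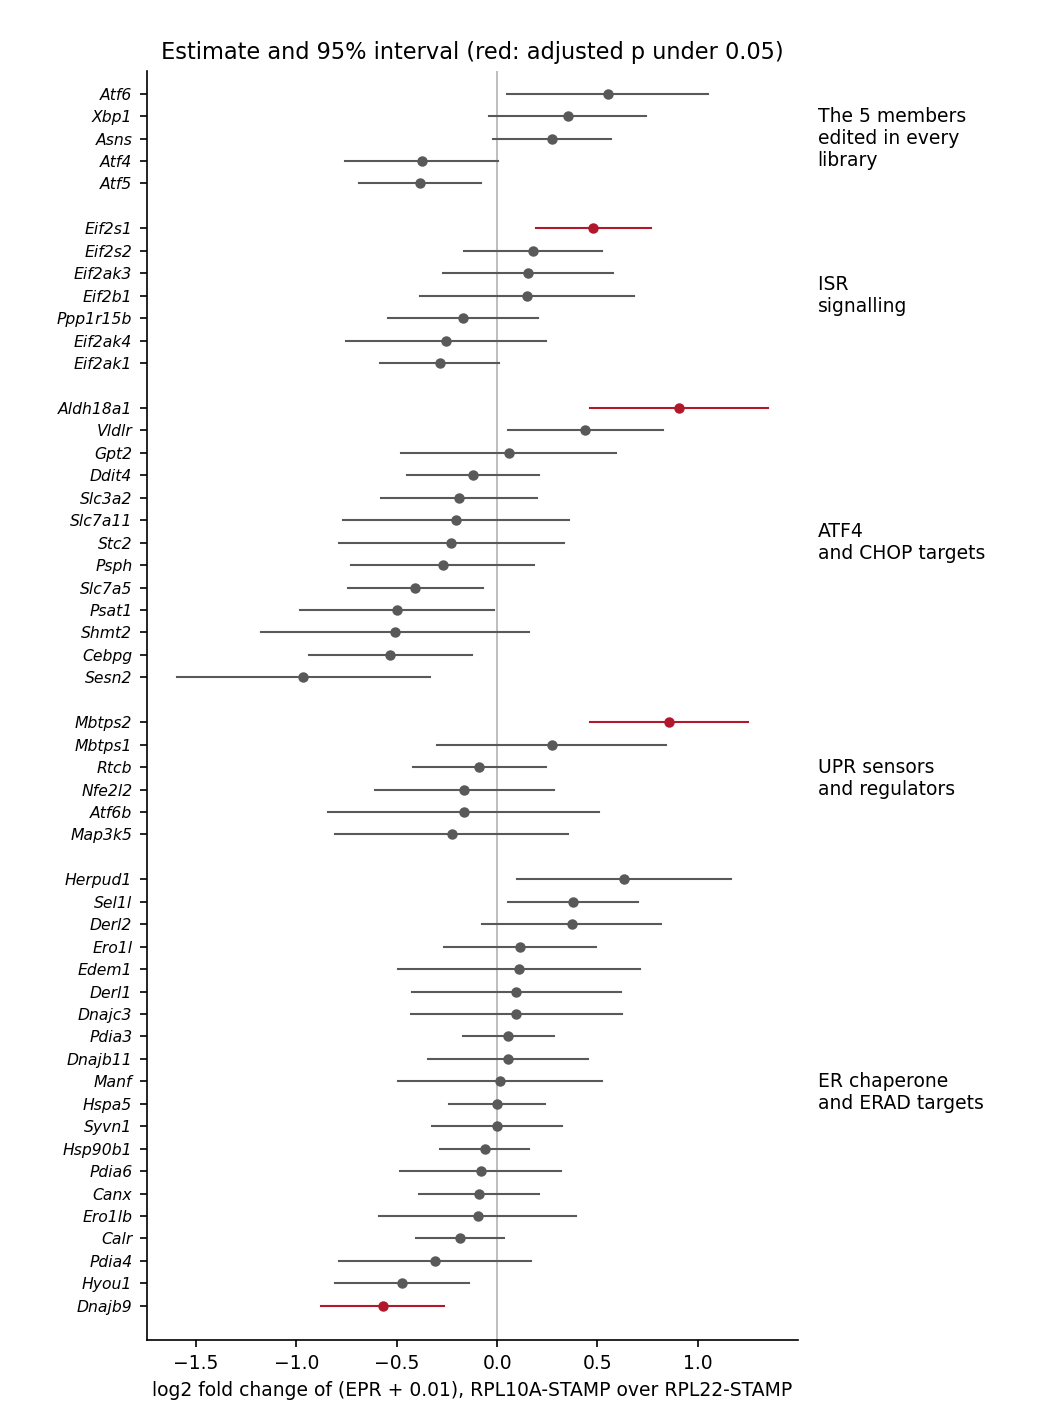
log2 fold change of (EPR + 0.01), RPL10A-STAMP over RPL22-STAMP (horizontal axis; points, limma estimate; bars, 95% interval), for the 5 genes and for the 46 testable genes of 4 wider lists; red marks an adjusted *p* under 0.05. None of the 5 genes is red, and 1 gene in each wider list is.

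The fold change between the variants went with the base composition of transcripts. When tested genes were divided by GC content into 4 groups of equal size, the median log2 fold change of a group went from 0.27 at the lowest GC to −0.25 at the highest. The stress genes did not all lie near the median of their group. *Atf5*, at 61.7% GC, was richer than 98.6% of tested genes, and *Atf4* had 54.1%. *Atf6* (46.0%) and *Asns* (47.7%) were in the second group, whose median was 0.07, and *Xbp1* (53.0%) was in the third, whose median was −0.09. *Atf6* and *Xbp1*, at 0.55 and 0.35, were above the medians of all 4 groups, as was *Asns* by a small margin (0.275 against 0.271). *Atf4* and *Atf5*, at −0.38 and −0.39, were below all 4. With the GC trend removed from each library the log2 fold change of *Atf5* went from −0.39 to 0.01 (adjusted *p* = 0.963) and that of *Atf4* from −0.38 to −0.15 (adjusted *p* = 0.597). That of *Xbp1* went from 0.35 to 0.54 (adjusted *p* = 0.102), and *Atf6* and *Asns* were at 0.42 and 0.23. APOBEC1 is known to act best in AU-rich surroundings, and both variants carry it. The share of C bases with A or U on both sides was 16.7% in *Atf5*, 19.4% in *Atf4* and 25.5% in *Xbp1*. It was 31.9% in *Asns* and 33.4% in *Atf6*. How far base composition contributes to each gene's EPR, or to its difference between the variants, was not tested.

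**Figure D4:**
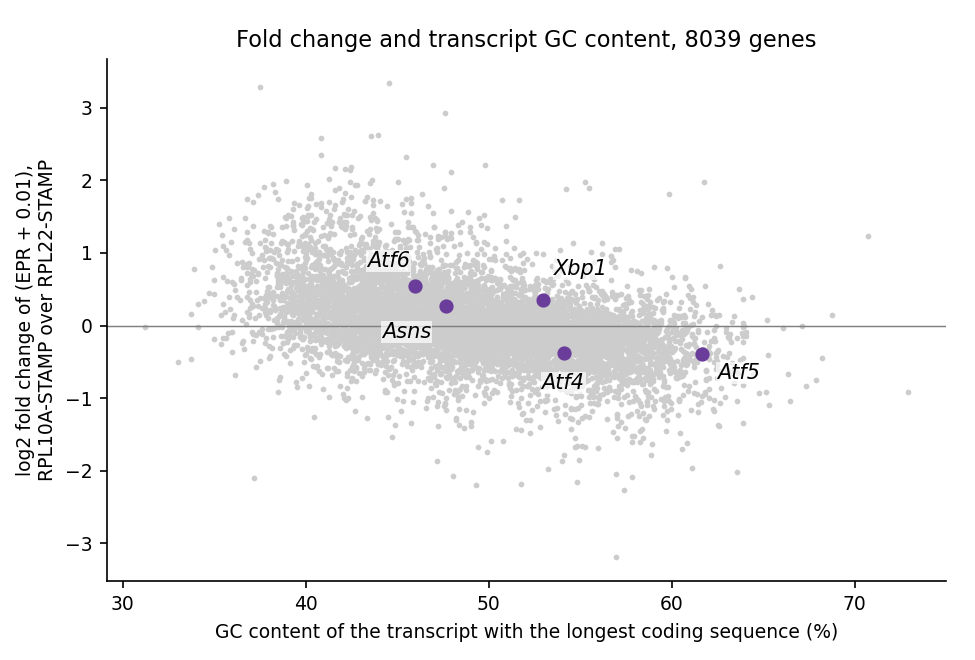
log2 fold change of (EPR + 0.01), RPL10A-STAMP over RPL22-STAMP (vertical axis), against GC content of the transcript with the longest coding sequence (horizontal axis, %), for 8039 tested genes (grey) and the 5 stress genes (purple). *Atf4* and *Atf5*, GC-rich, lie below 0 with the bulk of genes at that GC content, and *Xbp1*, at 53.0% GC, lies above 0.

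The rest of the pathway was followed in 4 lists of 69 genes, 46 of them edited in all 6 libraries, and limma called 4 of the 46, beside 14.3% of all genes tested. A count this near the background is not a result about the lists, and the called genes are described singly. The upstream arm of the ISR (eIF2α kinases, eIF2 and eIF2B subunits, phosphatase regulators) had 13 genes, all edited somewhere and 7 tested, with a median log2 fold change of 0.15 beside −0.01 over all tested genes. *Eif2s1*, which encodes eIF2α itself, was the gene called. Its EPR was 0.0133, 0.0134 and 0.0143 in the RPL10A-STAMP libraries and 0.00380, 0.00656 and 0.00509 in those with RPL22-STAMP, without overlap (log2 fold change 0.48, SE 0.12, limma adjusted *p* = 0.0419). The call was lost with the GC trend removed (0.13, adjusted *p* = 0.525) and when any 1 library was left out (adjusted *p* = 0.0809 to 0.114). The stress sensors of this arm did not pass: *Eif2ak3* (PERK) was at 0.15, *Eif2ak4* (GCN2) at −0.25 and *Eif2ak1* (HRI) at −0.29, and *Eif2ak2* (PKR) was edited in 5 libraries and not tested.

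Among 23 targets of ATF4 and CHOP, 13 were tested and 10 of them had a negative log2 fold change, with a list median of −0.23. Over all genes tested, 4125 of 8046 were negative and the median was −0.01. The part of GC content in this list was not tested. The 1 call in the list had a positive log2 fold change. *Aldh18a1*, a proline synthesis enzyme, had EPR values of 0.0828, 0.117 and 0.121 in the RPL10A-STAMP libraries and 0.0286, 0.0374 and 0.0540 in those with RPL22-STAMP. It lay at or above the 90.6th percentile of edited genes in every library, and the log2 fold change was 0.91 (SE 0.19, adjusted *p* = 0.0232). The call was kept with the GC trend removed (1.12, limma adjusted *p* = 0.0183). It was lost without any 1 library other than RPL22-STAMP replicate 3 (adjusted *p* = 0.0579 to 0.0825). *Sesn2*, the leucine sensor sestrin 2, had the largest fold of this list, −0.97 (SE 0.27), with adjusted *p* = 0.0553. *Cebpb*, *Fgf21* and *Gdf15* were listed at 0 in all 6 libraries.

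In the list of further UPR sensors and regulators, 6 of 11 genes were tested and the median log2 fold change was −0.13. *Mbtps2*, which encodes the site-2 protease that completes the cleavage of ATF6, was called. Its EPR was 0.0506, 0.0621 and 0.0882 in the RPL10A-STAMP libraries and 0.0233, 0.0236 and 0.0239 in those with RPL22-STAMP (log2 fold change 0.86, SE 0.17, adjusted *p* = 0.0191). Its exons share 28.4% of their bases with another gene and 3.79% of its transcript has identical copies elsewhere, so its edits and reads are uncertain. The call was lost with the GC trend removed (0.48, adjusted *p* = 0.115) and without RPL10A-STAMP replicate 2 or 3 or RPL22-STAMP replicate 2 or 3 (0.0506 to 0.0705). *Mbtps1*, the site-1 protease, had 0.27 (SE 0.24, adjusted *p* = 0.489), and the IRE1 paralog *Ern2* was at 0 in all libraries.

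Genes of the ER itself had a median of mean EPR of 0.00988, beside 0.0135 over all tested genes. A low level was not particular to them. The median was 0.00726 for the 5 stress genes, 0.00844 for UPR sensors and regulators, 0.00891 for ISR signalling and 0.00940 for ATF4 and CHOP targets. Of 22 ER chaperone and ERAD genes, 20 were tested and they divided into 10 above and 10 below 0, with a median log2 fold change of 0.01. *Hspa5* (BiP) had a mean EPR of 0.00405 with RPL10A-STAMP and 0.00314 with RPL22-STAMP, and *Hsp90b1* (GRP94) of 0.00344 and 0.00309, with log2 fold changes of −0.00 (SE 0.10) and −0.06 (SE 0.09). *Dnajb9* (ERdj4), an IRE1 and XBP1 target that acts as a BiP cochaperone, was the gene called. Its EPR was 0.0157, 0.0190 and 0.0177 in the RPL10A-STAMP libraries and 0.0179, 0.0309 and 0.0251 in those with RPL22-STAMP. The deposited values overlapped, and on the scaled values the log2 fold change was −0.57 (SE 0.13, limma adjusted *p* = 0.0307). It was −0.32 without scaling (adjusted *p* = 0.355). The call was kept with the GC trend removed (−0.93, limma adjusted *p* = 0.0121). It was lost when any 1 library other than RPL22-STAMP replicate 1 was left out (adjusted *p* = 0.0691 to 0.113). *Herpud1*, an ERAD component, had EPR values without overlap (mean 0.0228 with RPL10A-STAMP and 0.00794 with RPL22-STAMP) and an adjusted *p* of 0.107.

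The genes of the 4 lists that were most like *Atf4* over the 6 libraries, by Pearson's *r* of the scaled log2 values, were *Slc7a5* (0.88), *Shmt2* (0.86) and *Cebpg* (0.85). They encode an amino acid transporter, a mitochondrial serine hydroxymethyltransferase and a bZIP partner of C/EBP factors. These coefficients describe 6 libraries that share the split between variants. Their log2 fold changes were −0.41, −0.51 and −0.53, with limma adjusted *p* of 0.103, 0.271 and 0.0843. Picking genes by *r* with *Atf4* over the same libraries largely sets this sign, so it is not a separate likeness.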

How the data were processed

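The authors aligned single-end, poly(A)-selected reads to mm10 with STAR, took edits from SAILOR and read counts from featureCounts, and deposited 1 ratio per gene and library, EPR, with no scaling between libraries. Multi-mapped reads were kept by the aligner, and the gene annotation is not given in the sources used here. The depth behind each ratio is unknown, so no counting error could be given.

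Gene identifiers were named through GENCODE vM21 (31011 of 31053 found). The 10 genes and the wider lists were chosen with earlier results of these data known. For limma 3.58.1 (R 4.3.3; trend of variance with mean; Benjamini-Hochberg over 8046 genes), the EPR of each library was brought to a common median over those genes (the geometric mean of the 6 library medians). The script was tested on simulated data. Single values were compared with exact permutation tests over 20 labelings. Exact copies were searched with BLAST 2.17.0.

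The text names the 10 genes, up to 4 called genes per list with the largest fold, the 3 genes most like *Atf4*, and cell type markers. Others (*Sesn2*, *Herpud1*, *Hspa5*, *Hsp90b1*, *Mbtps1*, *Ern2*, the eIF2α kinases and genes at 0) were picked with their values in view. Settings varied were the pseudocount, the filter, scaling, replicate block, GC and length trends, the per-gene test and each library left out.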

Additional observations from a re-analysis of the deposited data

How the results depend on the processing

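None of the 5 tested stress genes was called under any of the 17 alternatives, nor were the 6 or 8 of them that wider filters admit. The lowest adjusted *p* was 0.0586, for *Atf5* without RPL22-STAMP replicate 1. Directions held for *Atf4*, *Asns*, *Atf6* and *Xbp1* under all 17, while leaving out 1 library gave log2 fold changes of −0.52 to −0.25 for *Atf4*, 0.22 to 0.35 for *Asns*, 0.35 to 0.71 for *Atf6*, 0.23 to 0.53 for *Xbp1* and −0.51 to −0.30 for *Atf5*, and *Atf5* turned to 0.0119 with the GC trend removed, with or without the replicate block. Scaling each library to its median gene lowered the EPR difference of RPL10A-STAMP minus RPL22-STAMP from 0.00517 to 0.00324 for *Asns* and from 0.00691 to 0.00420 for *Xbp1*, and took that of *Atf4* from −0.00261 to −0.00462. The 5 genes were edited in all 6 libraries also at an EPR above 0.001.

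The 4 calls in the wider lists became 1 with the filter at 3 edited libraries, 0 with the filter at 1, 0 with the per-gene test on EPR as deposited, and 0 to 3 when 1 library was left out. Replicate numbers did not pair the libraries (correlations of deviations 0.0437, 0.0464 and −0.00546). Blocking on the replicate number left 1 call, and 0 when the GC trend was removed as well. The block moved the calls over all genes from 1149 to 603. Over all genes the other counts that moved by more than 1.5 times were 754 (at least 3 libraries), 569 (at least 1), 661 (GC trend removed), 223 (block and GC), and 0 (per-gene test). With 1 library left out the counts were 369 to 873, and the highest, without RPL22-STAMP replicate 1, was within 1.5 times. Without scaling the median log2 fold change of all genes was 0.18, and RPL10A-STAMP had the higher EPR in 88.1% of calls, against 59.6% as scaled. The causes were not tested. Without reads per gene, low EPR and low depth cannot be separated.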
